A study of Mus musculus with 2 samples.

Results

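Axon guidance ligands and receptors were examined in mouse SVZ, the subventricular zone, where new neurons and glia arise beside the lateral ventricles, on an oligonucleotide array of neurogenesis and neural stem cell genes. The members were the gene spots whose symbol begins with Sema, Plxn, Nrp, Efn, Eph, Robo, Ntn, Unc5 or Slit and a digit, or is Dcc. These were 38 of the 263 gene spots: 16 semaphorins, 1 plexin, 2 neuropilins, 5 ephrins, 4 Eph receptors, 3 slits, 3 Robo receptors, netrin 1 with 2 netrin-G genes, and Unc5c. Dcc was not analysed here. The rule uses symbols and no measured value.

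The study compared SVZ of CNP-hEGFR mice, a transgenic line known to express the human EGF receptor from the promoter of the oligodendrocyte-lineage gene Cnp, with wild-type (WT) SVZ, both at postnatal day 8. The strain, the sex and the number of animals behind each RNA are not given in the sources used here. Tissue was microdissected from fresh brain slices, and total RNA was copied into biotin-labelled cRNA. Each group has 1 array, so differences below are given as sizes without a test or a replicate error, and 1 array a group limits their precision. In dissected tissue, more cells of a type and more RNA per cell cannot be told apart.

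Axon guidance cues are secreted or membrane-bound proteins that attract or repel growing axons and migrating cells through receptors on the responding cell. Semaphorins act through plexins, the secreted class 3 members with neuropilins as co-receptors. Ephrins act through Eph receptor tyrosine kinases, slits through Robo receptors, and netrin 1 through Dcc and Unc5 receptors. In the postnatal SVZ, slits are known as repellents of the neuroblasts that migrate to the olfactory bulb, and ephrins and Eph receptors as regulators of progenitor proliferation and migration.

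The brightness of the arrays and the scaling bear on every value. The CNP-hEGFR array was brighter: gene spots had a median intensity of 8528 in CNP-hEGFR and 3908 in WT, the median gene's local background differed 1.87-fold in the same direction, and so did all 10 unsaturated control or blank spots. Log2 ratios are CNP-hEGFR over WT, with every intensity scaled to its own array's average Gapdh and Ppia signal. That average was 1.11-fold higher in CNP-hEGFR, and 3 of the 6 spots stood near the ceiling of 65535 on both arrays. On this scale the median gene had a log2 ratio of 0.83, and of 0.58 with the spots near the ceiling left out. Ratios are also given relative to the 0.83 of the median gene. Of the 263 genes, the 157 called absent on both arrays had a median of 0.70, and the 88 called present on both had 0.93. Small positive values on this relative scale can therefore lie below the median of the genes called present on both arrays. As a scale that needs no housekeeping gene, each spot was divided by its own local background, and the log2 difference of this quotient between CNP-hEGFR and WT is given. Intensities of different probes are not compared with each other as levels.

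The deposited calls listed 20 of 38 as present in CNP-hEGFR and 19 of 38 in WT. Of all 263 genes, 39.2% were called present in CNP-hEGFR and 34.6% in WT. Both arrays called 18 members present. Plxna4 and Sema4f were present only in CNP-hEGFR, Slit2 only in WT, and 17 members on neither array. The 21 members present on at least 1 array compare with 40.3% of all genes. A spot at least 1.5 times as bright as its own local background was found for 20 members in CNP-hEGFR and 17 in WT, against 31.2% and 28.1% of all genes. The median member had a spot over local background of 1.52 in CNP-hEGFR and 1.31 in WT, beside 1.09 and 1.06 for all genes. Blank spots lie higher than many members. The dimmer of the 2 blanks had an intensity of 22727 in CNP-hEGFR and 8478 in WT, and 10 and 12 members were brighter than it, where 24.7% and 27% of all genes were.

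The call and the spot over background did not always go together. Unc5c was called absent in CNP-hEGFR at 1.65 times its background, and Sema4f present there at 1.08 times. In WT, Slit2 and Slit3 were called present at 1.08 and 1.33 times their backgrounds. On each array the other members called present were at least 1.5 times as bright as their background. Ntn1 was a bright spot without a call. It stood at 28510 in CNP-hEGFR and 24176 in WT, but its local background was 29848 and 25268, so the spot was dimmer than its surroundings on both arrays. No member had a bleeding warning or stood near the ceiling.

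**Figure D1:**
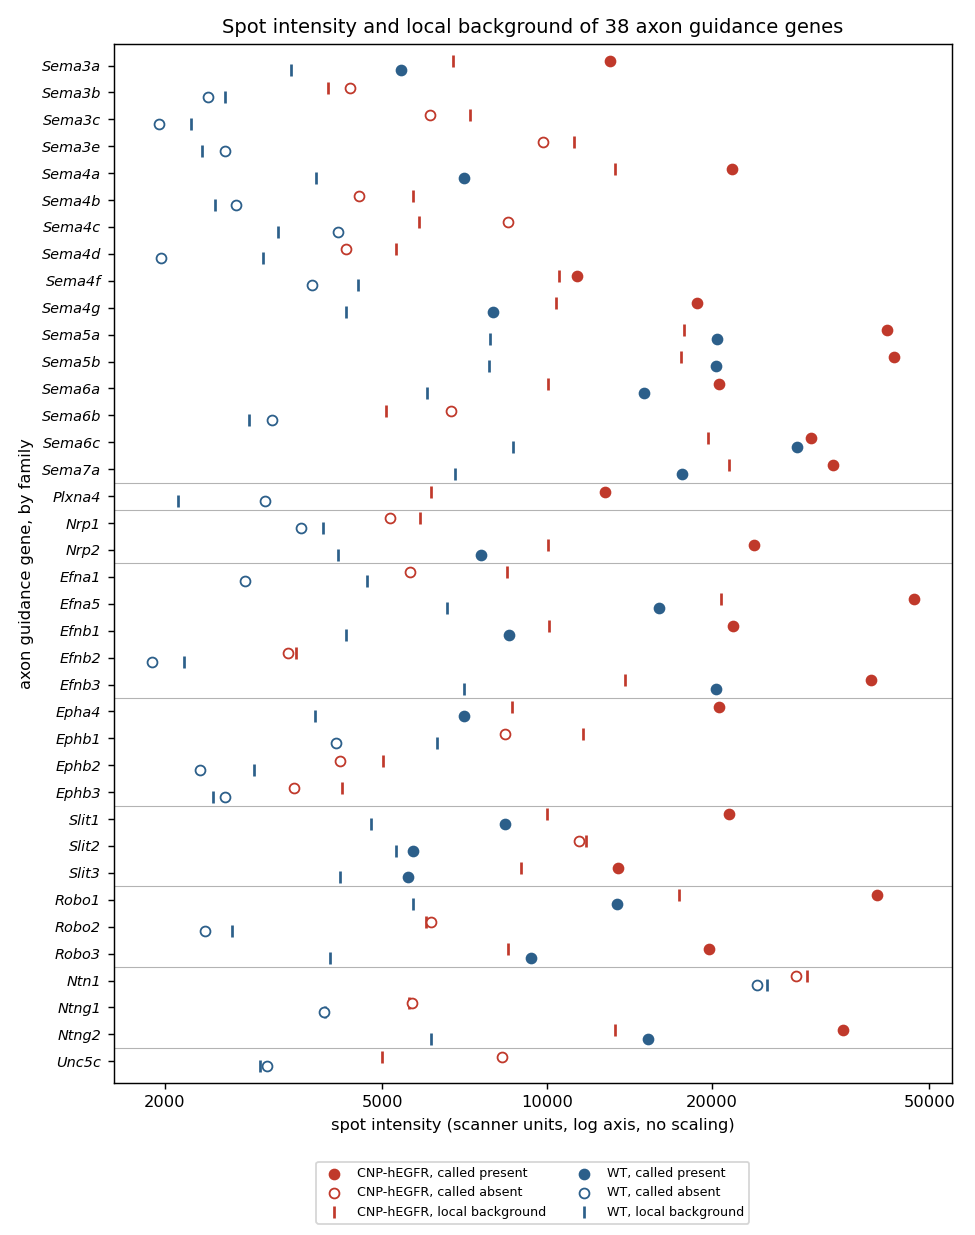
Spot intensity of each of the 38 guidance genes (horizontal log axis, scanner units, no scaling) with its local background (ticks), by family, for the CNP-hEGFR array (red) and the WT array (blue); filled points were called present and open points absent, 1 array per group. Every member spot is brighter in CNP-hEGFR than in WT, from 1.06-fold for Sema6c to 4.18-fold for Plxna4, and the local backgrounds are higher as well.

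Among the semaphorins, the largest family of guidance ligands, 9 of 16 were called present in CNP-hEGFR and 8 in WT. The secreted class 3 held 4 genes, of which Sema3a alone was present. Sema3a, a repellent that signals through neuropilin 1 and A-type plexins, had an intensity of 13060 in CNP-hEGFR and 5412 in WT, a log2 ratio of 1.11, and a value of 0.28 relative to the median gene (the median log2 ratio of all 263). Its spot over background was 1.94 in CNP-hEGFR and 1.59 in WT, so it was higher in CNP-hEGFR on both scales. Sema3b, Sema3c and Sema3e were absent on both arrays. Sema3b had 4354 in CNP-hEGFR and 2401 in WT, Sema3c had 6121 in CNP-hEGFR and 1954 in WT, and Sema3e had 9827 in CNP-hEGFR and 2576 in WT. The spots of these 3 genes were 0.848 to 1.09 times their background in CNP-hEGFR and 0.874 to 1.10 times in WT.

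In class 4, whose members span the membrane, 3 of 6 were present in CNP-hEGFR and 2 in WT. Sema4a had 21830 in CNP-hEGFR and 7044 in WT, which is 0.64 relative to the median gene, the highest value in the family. Its local background was 3.51-fold higher in CNP-hEGFR, more than the 3.10-fold of the spot itself, and its spot over background was 1.64 in CNP-hEGFR and 1.86 in WT. The 2 scales thus gave Sema4a opposite directions. Sema4g, at 18811 in CNP-hEGFR and 7979 in WT, had 0.25 relative to the median gene and a log2 spot over background difference of -0.04. Sema4f had 11340 in CNP-hEGFR, where it was called present, and 3715 in WT, where it was not. It has only a bound, at least 1.998-fold higher, computed against the lowest intensity of a present gene on the WT array (5090). Sema4b, Sema4c and Sema4d were absent on both arrays. Sema4b had 4524 in CNP-hEGFR and 2696 in WT, and its spot over background was 0.795 in CNP-hEGFR and 1.09 in WT. Sema4c, at 8499 in CNP-hEGFR and 4147 in WT, came nearest to 1.5 times its background, at 1.46 in CNP-hEGFR and 1.29 in WT.

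Class 5 semaphorins, membrane proteins with thrombospondin repeats, were present on both arrays and close to the median gene. Sema5a had 41888 in CNP-hEGFR and 20417 in WT, and Sema5b had 43086 in CNP-hEGFR and 20350 in WT. Relative to the median gene these are log2 values of 0.05 and 0.09, with spot over background differences of -0.14 and -0.08. Both genes thus lay within 1.07-fold of the median gene, and the sign depends on the scale.

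The transmembrane class 6 held the lowest ratios among the 20 guidance genes with a ratio or bound. Among the 18 members present on both arrays, brighter WT spots had lower log2 ratios (Spearman rho -0.66). WT intensity is also the divisor of the ratio, and Sema6c had the brightest WT spot of all members. The part of intensity in these low ratios was not tested. Sema6c, at 30376 in CNP-hEGFR and 28626 in WT, had a log2 ratio of -0.07, and relative to the median gene it was 1.87-fold lower in CNP-hEGFR. Its spot was 1.54 times the local background in CNP-hEGFR and 3.31 times in WT, a log2 difference of -1.10 and the lowest among the members. Without scaling its spot was 1.06-fold brighter in CNP-hEGFR while the background beside it was 2.28-fold brighter. Sema6a, a ligand and receptor known from cerebellar granule cell migration in the mouse, had 20645 in CNP-hEGFR and 15040 in WT, 1.45-fold lower in CNP-hEGFR relative to the median gene. Its spot over background was 2.06 in CNP-hEGFR and 2.50 in WT. Sema6a and Sema6c were therefore below the median gene on both scales. Sema6b was absent on both arrays, with spot over background values of 1.32 in CNP-hEGFR and 1.10 in WT. Sema7a, the semaphorin anchored to the membrane by a lipid, had 33392 in CNP-hEGFR and 17625 in WT, -0.07 relative to the median gene. Its spot over background was 1.55 in CNP-hEGFR and 2.60 in WT, a log2 difference of -0.74.

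Of the semaphorin receptors on the array, Plxna4 and Nrp2 were detected in CNP-hEGFR and Nrp1 was not. Plxna4, a signalling receptor for class 3 and class 6 semaphorins, had 12768 in CNP-hEGFR, where it was called present, and 3055 in WT, where it was not. It was at least 2.25-fold higher in CNP-hEGFR, or 1.26-fold when this bound is set against the median gene. Its spot over background was 2.08 in CNP-hEGFR and 1.45 in WT. The WT value is the highest among members called absent on that array, just under 1.5. Nrp2, the co-receptor that favours Sema3f and Sema3c, had 23939 in CNP-hEGFR and 7567 in WT, a log2 ratio of 1.505 and the highest among the members with a ratio. Relative to the median gene it was 1.59-fold higher in CNP-hEGFR, and its spot over background was 2.38 in CNP-hEGFR and 1.83 in WT. Nrp1, the co-receptor of Sema3a and of a form of VEGF-A, was absent on both arrays, at 5160 in CNP-hEGFR and 3554 in WT, with a spot below its background on each.

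The calls separate the neuropilins, as they do the Robo and Eph receptors, and the neuropilin promoter windows are shown as an example of a related pair with different calls. Each window runs from 250 bases before to 50 bases after the start of the gene, from RefSeq on build GRCm38.p6, 5′ to 3′, with each CG dinucleotide in capitals (CG reads the same on both strands). Nrp2 lies at chr1:62703067-62703366 and Nrp1 at chr8:128358823-128359122, both on the plus strand.
Nrp2: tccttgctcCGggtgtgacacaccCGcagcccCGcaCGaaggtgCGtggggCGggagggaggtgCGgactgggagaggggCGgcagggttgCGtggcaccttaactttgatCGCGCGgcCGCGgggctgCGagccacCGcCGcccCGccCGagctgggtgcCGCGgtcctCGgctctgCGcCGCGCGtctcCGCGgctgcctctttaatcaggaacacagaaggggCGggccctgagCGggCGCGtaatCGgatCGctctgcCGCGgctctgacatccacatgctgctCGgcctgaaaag
Nrp1: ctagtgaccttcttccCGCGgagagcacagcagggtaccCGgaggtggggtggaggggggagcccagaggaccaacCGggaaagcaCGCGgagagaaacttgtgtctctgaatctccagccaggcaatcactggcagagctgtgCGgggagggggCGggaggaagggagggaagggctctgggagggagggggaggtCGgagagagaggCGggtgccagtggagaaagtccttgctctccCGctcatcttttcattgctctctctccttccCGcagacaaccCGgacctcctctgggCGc
The Nrp2 window holds 37 CG and the Nrp1 window 14. As many or more are found in 5.58% and 36.3% of all 32851 promoter windows of this length, 94.6% of which hold at least 1. Across the 32 members with a window the CG count did not follow the calls in this way. The median was 17 for the 17 members present on at least 1 array and 23 for the 15 present on neither, where the median of all windows is 7. Single counts overlapped, from 2 to 41 in the members present on at least 1 array and from 3 to 42 in the others.

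Ephrins, the membrane-bound ligands of Eph receptors, were present in 3 of 5 cases on both arrays. Efna5, a lipid-anchored ephrin known for topographic mapping of axons, had 46879 in CNP-hEGFR and 16013 in WT, 1.47-fold higher in CNP-hEGFR relative to the median gene. Its background was 3.17-fold higher, and its spot over background was 2.25 in CNP-hEGFR and 2.44 in WT. The scales therefore differed in sign for Efna5. Efnb1, a transmembrane ephrin with functions in cortical progenitors, had 21865 in CNP-hEGFR and 8513 in WT, 1.29-fold higher relative to the median gene, with spot over background values of 2.17 in CNP-hEGFR and 1.99 in WT. Efnb3, a midline barrier for corticospinal axons, had 39195 in CNP-hEGFR and 20399 in WT. Its values were close to the median gene on both scales, at -0.05 relative to the median gene and -0.03 for the spot over background. Efna1 and Efnb2 were absent on both arrays, each with a spot dimmer than its local background.

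Of the Eph receptors, Epha4 was present and Ephb1, Ephb2 and Ephb3 were absent on both arrays. Epha4, which binds ephrins of the A and B classes, had 20659 in CNP-hEGFR and 7041 in WT, 1.48-fold higher in CNP-hEGFR relative to the median gene. Its spot over background was 2.39 in CNP-hEGFR and 1.87 in WT, so Epha4 was higher in CNP-hEGFR on both scales. Ephb1 had 8364 in CNP-hEGFR and 4112 in WT. The 3 EphB receptors, known in the mouse brain for B-class ephrin signalling, had spot over background values of 0.719 to 0.834 in CNP-hEGFR and 0.654 to 1.05 in WT. The array thus detected the receptor Epha4 together with the ephrins Efna5, Efnb1 and Efnb3.

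All 3 slits, secreted repellents of axons and neuroblasts, were called present in WT, and Slit1 and Slit3 in CNP-hEGFR as well. Slit1 had 21547 in CNP-hEGFR and 8379 in WT, 1.30-fold higher in CNP-hEGFR relative to the median gene, and its spot over background was 2.16 in CNP-hEGFR and 1.76 in WT. Slit3 had 13498 in CNP-hEGFR and 5563 in WT, 1.22-fold higher relative to the median gene, with 1.504 in CNP-hEGFR and 1.33 in WT over background. Slit1 and Slit3 were higher on both scales. Slit2 had 11439 in CNP-hEGFR, where it was called absent, and 5698 in WT, where it was called present. Its spot was 0.970 times its background in CNP-hEGFR and 1.08 times in WT. The array that called it absent was the brighter one, so Slit2 was given neither a ratio nor a bound on the Gapdh and Ppia scale.

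Among the Robo receptors, Robo1 and Robo3 were present on both arrays and Robo2 on neither. Robo1 had 40127 in CNP-hEGFR and 13420 in WT, 1.51-fold higher in CNP-hEGFR relative to the median gene. Its background was 3.07-fold higher, and its spot over background was 2.30 in CNP-hEGFR and 2.36 in WT. Robo3, known for its part in the midline crossing of hindbrain and spinal cord axons, had 19777 in CNP-hEGFR and 9354 in WT, 1.06-fold higher relative to the median gene, and 2.33 times its background on both arrays. Neither Robo1 nor Robo3 was higher in CNP-hEGFR over its own background. Robo2 had 6127 in CNP-hEGFR and 2371 in WT, with spot over background values of 1.02 in CNP-hEGFR and 0.892 in WT.

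The netrin system was little detected. Ntn1, the secreted ligand described above, and its repulsive receptor Unc5c were called absent on both arrays. Unc5c had 8256 in CNP-hEGFR and 3069 in WT. Its log2 spot over background difference of 0.68 was the highest of all members, with 1.65 in CNP-hEGFR and 1.03 in WT. Without a call it has no ratio. The symbol rule also takes the netrin-G genes, which encode lipid-anchored synaptic relatives of netrins that bind other receptors. Ntng2 was present, at 34774 in CNP-hEGFR and 15271 in WT, 1.15-fold higher in CNP-hEGFR relative to the median gene and 2.61 times its background in CNP-hEGFR against 2.49 times in WT. Ntng1 was absent on both arrays, with a spot at 1.02 times its background in CNP-hEGFR and 0.994 times in WT.

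Set together, 20 guidance genes had a ratio (18) or a bound (2). Of these, 12 reached 2-fold, higher in CNP-hEGFR, on the Gapdh and Ppia scale, or 60% where 49.5% of the 101 such genes on the array were, and 0 were at least 2-fold lower, where 1.98% were. The bounds of Plxna4 and Sema4f can only lie upward, since these genes entered through the call in CNP-hEGFR. Among the 18 members present on both arrays, 11 were at least 2-fold higher, where 45.9% of such genes were. The count of 12 was 5 when only the Gapdh and Ppia spots below 95% of the ceiling were used, a scale on which 30 of the 101 genes reached 2-fold. With each array divided by its median gene spot, 0 of 21 members were at least 2-fold higher, where 8 of 100 genes were. With each spot divided by its own background, 0 of 19 members were, where 2 of 97 genes were. The median log2 ratio of the 20 was 1.10, beside 1.00 for the 101 genes. Relative to the median of all 263 genes, 16 of 20 were higher, against a background of 66.3%, and 14 of the 18 present on both arrays, against 61.2%. The 18 ratios ran from -0.90 for Sema6c to 0.67 for Nrp2 on the log2 scale, so none reached 2-fold in either direction, where 7.92% of the 101 genes were above and 5.94% below. The bounds were 0.34 for Plxna4 and 0.17 for Sema4f. They hold on the Gapdh and Ppia scale, and how far these genes lie above them there is not measured.

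**Figure D2:**
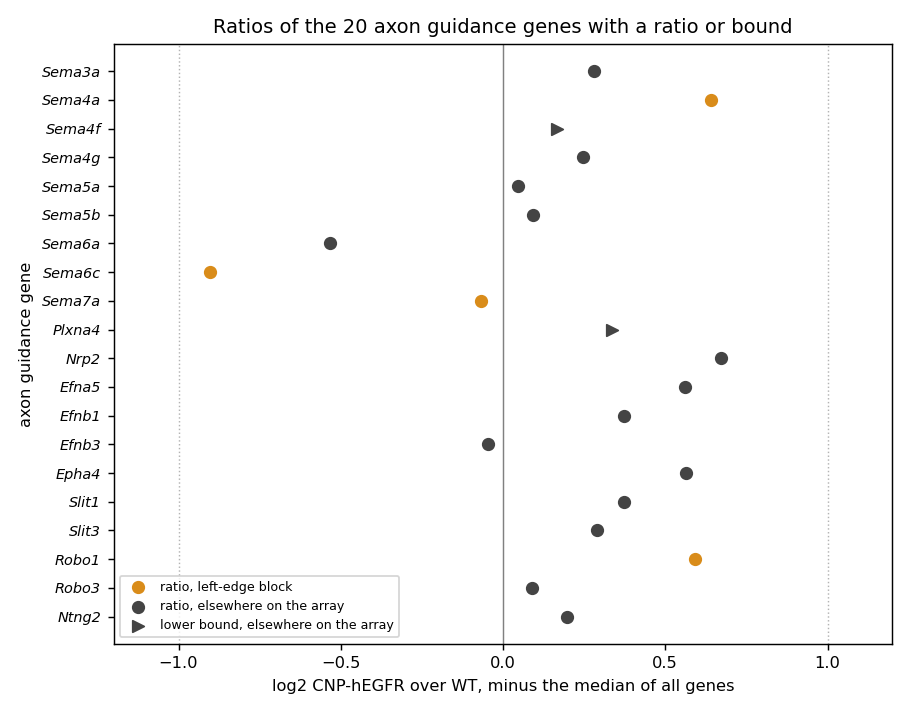
Log2 ratio of CNP-hEGFR over WT minus the median log2 ratio of all 263 genes (horizontal axis) for the 20 guidance genes with a ratio (circles) or a lower bound (triangles); dotted lines mark 2-fold, orange points lie in the left-edge block of the layout, 1 array per group. The 18 ratios lie within 2-fold of the median gene, with Sema6c lowest at -0.90 and Nrp2 highest at 0.67. The triangles of Plxna4 and Sema4f mark lower bounds on the Gapdh and Ppia scale, set by the lowest intensity of a present gene in WT.

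On the scale of spot over own local background, the shift of the members was small. The median log2 difference over all 38 was 0.05, as over all 263 genes (0.05), and 20 members were higher in CNP-hEGFR, 52.6% where 57.4% of all genes were. Reading both scales, 9 of the 20 members with a ratio or bound were above the median gene and also higher over their background, 45% against a background of 46.5%. They were Sema3a, Sema4f, Plxna4, Nrp2, Efnb1, Epha4, Slit1, Slit3 and Ntng2. For Plxna4 and Sema4f the WT quotient was that of a spot called absent. With the lowest intensity of a present WT gene (5090) in place of that spot, neither has a bound on the background scale. Division of each array by its median gene spot left all 9 higher in CNP-hEGFR, and 43 of the 47 such genes on the array. That division lowers every log2 ratio by 0.97, and the median gene by itself by 0.83, so this outcome was nearly fixed. Without the bounds of Sema4f and Plxna4, 7 of 18 members were higher on both scales, or 38.9%, against 38.8% of the genes present on both arrays. A further 7, among them Robo1, Efna5 and Sema4a, were above the median gene but lower over their background (background 19.8%). The remaining 4, Sema6a, Sema6c, Sema7a and Efnb3, were lower on both (background 27.7%).

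**Figure D3:**
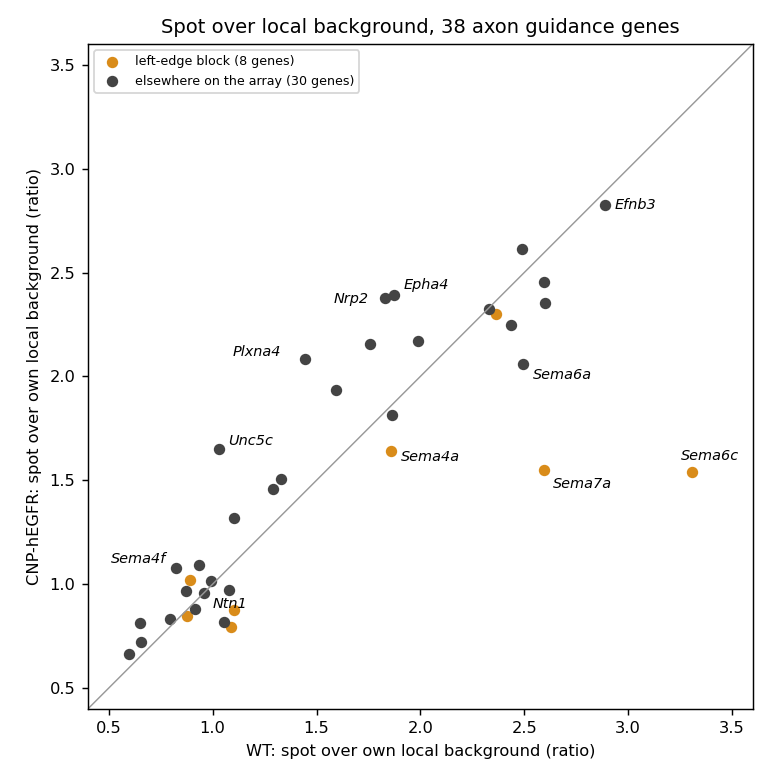
Spot intensity over its own local background for the 38 guidance genes, in CNP-hEGFR (vertical axis) against WT (horizontal axis), with the line of equality; orange points lie in the left-edge block, 1 array per group. Most points lie near the line, Sema6c (1.54 in CNP-hEGFR, 3.31 in WT) and Sema7a (1.55 and 2.60) lie far below it, and Unc5c, Plxna4, Nrp2 and Epha4 lie above it.

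Position on the array moved with these values. Spots are laid out mostly in alphabetical order, so families sit side by side: 22 of the 38 members, 19 of them semaphorins and slits, lie in lines 18 to 20 of the 24 lines. In a block at the left edge (lines 18 to 22, first 4 columns), the local background was raised in CNP-hEGFR, and it holds 8 members, Robo1, Robo2, Sema3c, Sema3e, Sema4a, Sema4b, Sema6c and Sema7a. The median background of these 8 differed 3.12-fold, higher in CNP-hEGFR, with a range of 2.26-fold to 4.80-fold, against 1.98-fold for the 30 members elsewhere. Of the 8, 7 had a lower spot over background in CNP-hEGFR, with a median log2 difference of -0.26, and of the 30 elsewhere 11 did, with a median of 0.13. The local background is the divisor of this quotient, so a raised background by itself lowers the quotient. Of the 214 other genes outside the block, 86 had a lower quotient, with a median difference of 0.07. Of the 11 other genes within the block, 8 did, with a median difference of -0.30. The values of Sema6c, Sema7a, Sema4a and Robo1 thus come from this block, and its part in them was not tested. Sema6a lies outside it. Without the block, the median log2 ratio of the members was 1.10, as with it. Of the 16 members left, 10 were at least 2-fold higher, where 33 of 73 other genes outside the block were.

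**Figure D4:**
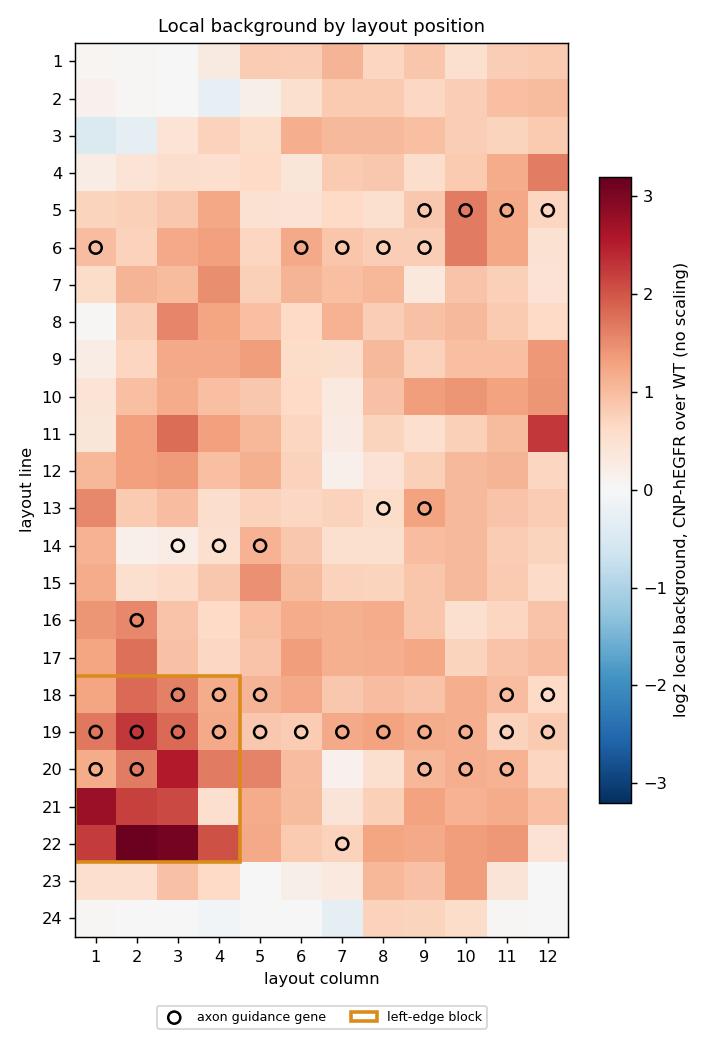
Map of the 288 spots by layout line and column, coloured by the log2 fold of the local background, CNP-hEGFR over WT without scaling; circles mark the 38 guidance genes and the orange frame the left-edge block. The background is most raised within the frame, where 8 guidance genes lie, and most semaphorins lie in line 19.

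Across the 38 members, which share both arrays, log2 folds of spots and of the backgrounds around them correlated with a Pearson r of 0.70 and a Spearman rho of 0.68.

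Other genes of guidance signalling, from a list of 37, had 17 spots on the array, of which 6 were called present in CNP-hEGFR and 5 in WT. On the Gapdh and Ppia scale 0 of these 6 were at least 2-fold higher, where 49.5% of all genes with a ratio or bound were, and 0 were at least 2-fold lower. Relative to the median gene, Gap43, a growth cone protein, had 0.02, Dab1, the reelin adaptor, -0.41, Cdk5rap3 -0.69, and Stmn1, the microtubule regulator stathmin, -1.04, while the GTPase gene Rac1, present only in CNP-hEGFR, had a bound of 0.01. Stmn1 was thus more than 2-fold below the median gene. Its spot lies in the left-edge block, with a local background 1.46-fold higher in CNP-hEGFR, the lowest fold in the block, where the median gene had 1.87-fold. Its intensities were bright on both arrays, at 54131 in CNP-hEGFR and 56052 in WT with a ceiling of 65535. Dbn1, which encodes the actin-binding protein drebrin, had -0.84, a value limited by a spot near the ceiling in CNP-hEGFR. Of the 6 genes, 2 were above the median gene and 4 below, where 66.3% of all genes with a ratio or bound were above. The receptor Cxcr4 and its ligand Cxcl12, guidance cues of another family, were absent on both arrays.

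Markers of the tissue were few. Dcx, of migrating neuroblasts, had 15373 in CNP-hEGFR and 6396 in WT, and Dlx5 was absent. Nes, of neural progenitors, had 39543 in CNP-hEGFR and 18454 in WT, and the astrocyte gene S100b was present only in CNP-hEGFR. Olig1, of the oligodendrocyte lineage, had 39301 in CNP-hEGFR and 21792 in WT, and Cspg4 was absent. The deposited normalized values of Olig2 do not follow from its intensities, so its value is uncertain. The intensities give -0.58 relative to the median gene, and Olig2 was kept in the shares over all genes. Relative to the median gene, Dcx had 0.28, Nes 0.11, S100b a bound of 0.09 and Olig1 -0.14, within the range of the guidance genes. The neuronal gene Dlg4 had 1.26. Its local background was 3.10-fold higher in CNP-hEGFR, and its spot over background was 1.73 in CNP-hEGFR and 1.12 in WT. Dlg4 was the only neuronal marker read. The listed marker Map2 is on the array under its older symbol Mtap2 and was not read as a marker. Whether a change in the mix of cells moves with the guidance genes was not tested. Markers of blood vessels, microglia, ependyma and choroid plexus were not analysed here.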

How the data were processed

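SVZ tissue of 1 CNP-hEGFR and 1 WT sample was measured on 1 array each. The deposited intensity of a spot is the average over an area of 88 pixels, listed with the local background around the spot, which was not subtracted, per the file headers. The authors' normalized values are a ratio to the mean of 9 selected spots after the array minimum was subtracted, per the file headers. The design text names 3 RNA preparations with repeat assays, GEArray Expression Analysis Suite 2.0 and Gapdh, Ppia and β-actin; β-actin and repeat assays were not analysed here. Present and absent calls, with a threshold of 1.5 per the file headers, were used as deposited, since how they follow from the intensities is not given in the sources used here. All deposited normalized values of guidance genes follow from their intensities; 9 other genes, whose deposited values do not, stayed out of the floors (5090 in WT, 10178 in CNP-hEGFR), the lowest intensity of a present gene.

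A gene present on both arrays has a ratio, and a gene present only on the array where it is brighter has a bound against the higher of its dim spot and the floor. A difference of 2-fold is a size, not a test. Ratio and bound steps were tested on simulated data with Python (numpy, pandas). Alternatives were array-median scaling, no scaling, division by or subtraction of local background, housekeeping spots below 95% of the ceiling, the authors' ratios, other detection rules and leaving out the left-edge block. A median was counted as moved past 1.5-fold. Named are all guidance genes called present on at least 1 array, the 3 brightest absent ones per array, those in the block, and present genes of the lists; the other absent members, absent list genes and promoter windows named were chosen after their values were seen. Members, block and lists were chosen with earlier results of these data known. RefSeq accessions of 36 of the 38 members matched the table of assembly GRCm38.p6, all 36 with the same symbol, and 32 members had a promoter window. The lists of guidance-pathway genes and of cell type markers had 1 result each, given at the end of the report.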

Additional observations from a re-analysis of the deposited data

Results flagged for a closer look

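Local background and control spots are outside the expression comparison and differed between the arrays. The local background of the 8 guidance spots in the left-edge block was 3.12-fold higher in CNP-hEGFR than in WT at the median, against 1.98-fold for the other 30 guidance spots. The 10 unsaturated control or blank spots differed 1.95-fold at the median, brighter in CNP-hEGFR, with a range of 1.42-fold to 3.13-fold, where the guidance spots were 2.12-fold brighter.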

How the results depend on the processing

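No paired analysis was possible because each group has 1 array, and for the same reason no replicate could be left out. The median log2 ratio of the members with a ratio or bound (1.10) was 0.11 with each array divided by its median gene spot and -0.04 with each spot divided by its own local background. These 2 medians were over 21 and 19 members in place of 20, since the genes with a bound change with the scale. It ran from 0.85 to 1.63 under the other 5 alternatives. The number of members at least 2-fold higher was 0 under both of those settings in place of 12, where 8 of 100 and 2 of 97 genes of the array were. It was 5 with the Gapdh and Ppia spots below 95% of the ceiling, 13 with the authors' deposited values, and 16 without scaling or with local background subtracted. These 4 settings were added for this count after seeing the data. In the same order, 30, 56 and 65 of 101 genes of the array and 67 of 91 were at least 2-fold higher. The number at least 2-fold lower was 1, Sema6c, with array-median scaling and with division by local background, in place of 0, and 0 under those 4 settings. Of the genes of the array, 8 of 100 and 6 of 97 were at least 2-fold lower with array-median scaling and division by local background. Array-median scaling sets every ratio 0.97 lower by construction, and the log2 ratio changed sign for Efnb3 (-0.18), Robo3 (-0.05), Sema5a (-0.09), Sema5b (-0.04), Sema6a (-0.67) and Sema7a (-0.20). With division by local background it did so for Efna5 (-0.12), Efnb3 (-0.03), Robo1 (-0.04), Robo3 (-0.0014), Sema4a (-0.18), Sema4g (-0.04), Sema5a (-0.14), Sema5b (-0.08), Sema6a (-0.28) and Sema7a (-0.74), and without scaling for Sema6c (0.09). A spot brighter than the dimmer blank was found for 10 members in CNP-hEGFR and 12 in WT, in place of 20 and 19 called present. The median log2 spot over background in WT (0.39) was 1.22 over the members called present there, by construction. The median difference of spot over background between the arrays (0.05) was -0.03 over members present on at least 1 array and -0.03 with the median background of each array in place of the local one. The cause of the changes under local background, the blanks and the choice of housekeeping spots was not tested. Signal over background limits the dim members. By the deposited calls and the bound rule, 18 of 38 members have neither a ratio nor a bound, among them the bright spot of Ntn1. The other 20 of 38 members have one, where 101 of all 263 genes do.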
